A study of Mus musculus with 2 samples.

Results

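Chromosome 18 of the mouse held 2655 of the 61400 regions of a deposited list. These are regions where histone H4 chromatin immunoprecipitation gave more sequenced tags after SAHA than after DMSO. On chromosome 18 their listed FDR ran from 58.24% to 100%, so none would pass a usual FDR limit. The regions were taken as every listed row on that chromosome (build mm9). The chromosome had been chosen by its number of regions per Mb, the highest among the autosomes. That number, with the window counts and short gaps that go with it, is therefore a description and supports nothing. The cells were MC3T3 sc4 osteoblasts, a line from mouse calvaria. All cells were kept in osteogenic medium, which contained 4 mM beta glycerol phosphate beside ascorbic acid at 50 µg/ml, and on day 4 received for 2 hours either 20 µM SAHA (suberoylanilide hydroxamic acid, a histone deacetylase inhibitor) or the solvent DMSO. Each condition had 1 library, made with an antibody labelled as histone H4, which the design text describes as a map of acetylated H4. The SAHA or DMSO stayed in place while the cells were digested with collagenase for 40 min. The caller kept 97.4% of the SAHA tags and 65.6% of the DMSO tags after its limit on duplicates, a difference that cannot be told apart from the treatment. There was no replicate, no test was made, and every value below compares these 2 libraries only.

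Histone H4 tails carry acetyl groups on several lysines. Acetyltransferases add them and histone deacetylases remove them, so an inhibitor such as SAHA tends to raise acetylation. Acetylated H4 is typical of active promoters, enhancers and open chromatin, and active genes lie unevenly along a chromosome, in gene-rich and gene-poor stretches. Chromosome 18 is known to carry, among many others, the clustered protocadherin genes, a large family of cell adhesion molecules of the nervous system. Neither that locus nor any other gene was placed among the regions here, because the gene table used here belongs to another genome build.

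The regions of chromosome 18 were many and short. They numbered 32.9 per Mb between the first region at 4.34 Mb and the last at 85.1 Mb, against 31.9 on chromosome 11, 29.4 on chromosome 10 and a median of 25.1 over the other 18 autosomes. Covered length did not follow the same order. The regions covered 58.4 kb per Mb, which was rank 6 of 19 autosomes, below 70.3 kb on chromosome 11 and above the median of 53.2 kb on the others. SAHA tags within regions came to 11004 per Mb, rank 12, against a median of 11410 on the other autosomes. Chromosome 18 thus contributed 4.32% of all listed regions, 3.67% of the covered length and 3.25% of the tags in regions.

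**Figure D1:**
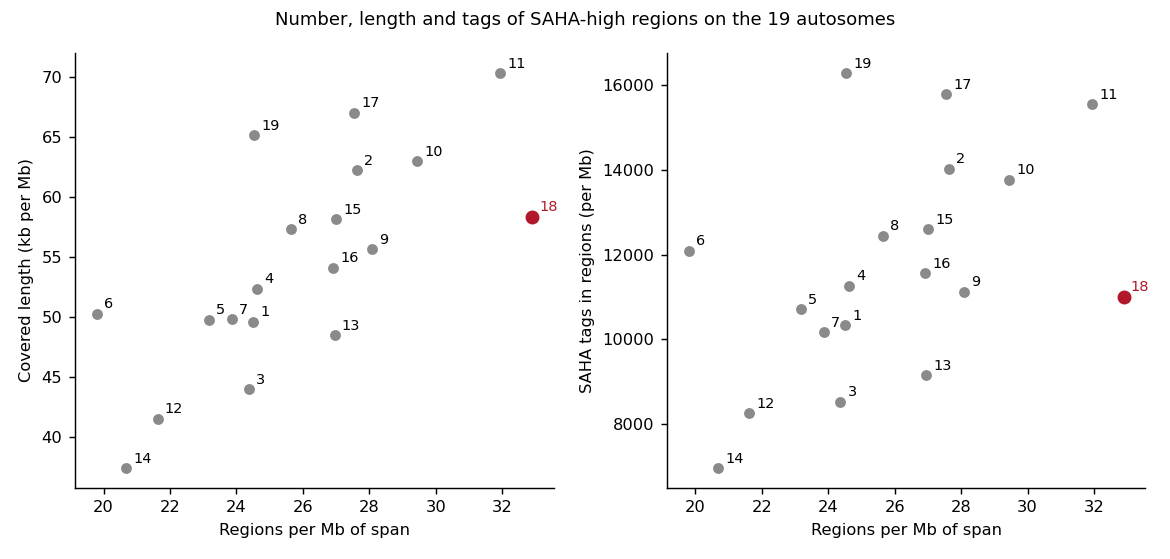
Each point is 1 autosome, with regions per Mb of span on both horizontal axes, covered length in kb per Mb (left) and SAHA tags in regions per Mb (right) on the vertical axes, which do not start at 0. Chromosome 18 (red) lies farthest right at 32.9 regions per Mb, while its 58.4 kb and 11004 tags per Mb lie within the range of the others.

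The first rank in region number was narrow and depended on how regions and chromosome length were counted. The lead over chromosome 11 was 2.96%, and 2.39 Mb more of region-free sequence would have removed it. The files give no chromosome lengths, but chromosome 18 of build mm9 is known to extend several Mb past its last listed region. That is more than this margin, so the first rank holds only for the span between regions. Over the assembled length it would probably be lost, although this could not be computed here. Counted from position 1 to the last region, the values were 31.2 per Mb on chromosome 18 and 31.1 on chromosome 11. When neighbouring regions were joined across gaps of up to 1 kb, chromosome 18 ranked 2, with 20.0 against 21.2 per Mb on chromosome 11. Among regions with a score of at least 100 (10 times the −log10 of the p-value, where the list begins at 50), the values were 20.1 and 19.9 per Mb.

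Along chromosome 18 the regions were unevenly spread, and many windows were dense. Of its 80 complete windows of 1 Mb, 13 (16.2%) were dense, meaning at least 65 regions, the 90th percentile over the 2357 complete windows of all autosomes. Over all autosomes 10.3% of windows were dense, and the highest share on another autosome was 15.3% on chromosome 10. The 13 dense windows held 1256 regions, or 48.4% of those in complete windows, against 35.1% on the other autosomes. Relative to its own count, chromosome 18 was not gathered more tightly than most autosomes: its fullest 14 windows (17.5%) were needed to hold 50% of the regions, rank 8 of 19 from the highest share, against a median of 16.5% on the others and 12.1% on chromosome 12. At a score of at least 100, with the limit set again, 9 of the 80 windows (11.2%) were dense. By construction, a limit at the 90th percentile makes about 10% of all autosomal windows dense. As listed, the lowest dense window had 65 regions and the next window below the limit had 64. Without the former, the share of dense windows would have been below the 15.3% of chromosome 10.

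The middle of the distribution was also high. The median window of chromosome 18 held 24 regions (quartiles 3.25 and 47.2), against medians of 8 to 29 on the other autosomes, of which chromosome 11 had the highest. Windows with 0 regions numbered 17 of 80 (21.2%), beside 24.5% over all autosomes. Sequence before the first or past the last region of a chromosome is left out of these shares. As listed, chromosome 18 thus had the largest share of dense windows of any autosome, by a narrow margin. Its share of empty windows ranked 12 of 19.

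**Figure D2:**
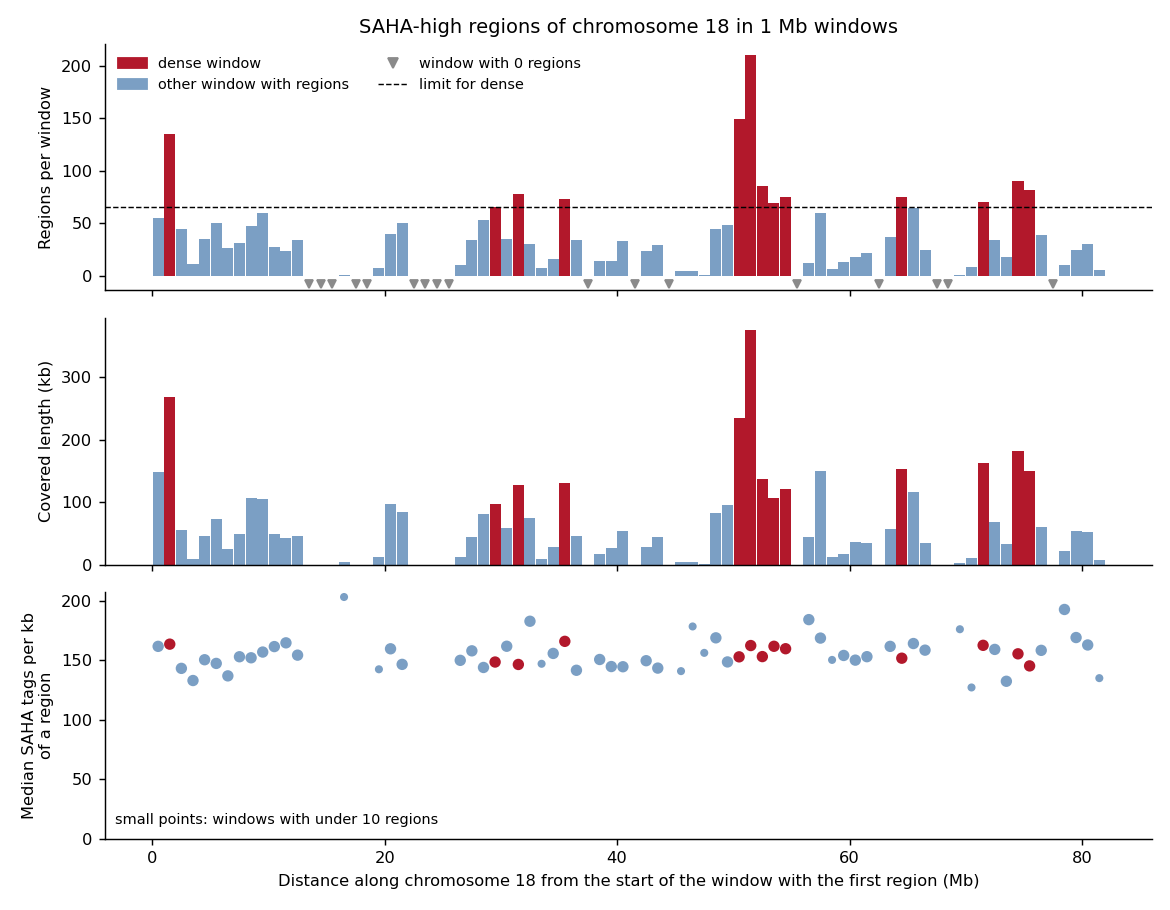
Bars give the regions (top) and the covered length in kb (middle) of each 1 Mb window of chromosome 18, and points give the median SAHA tags per kb of its regions (bottom), against the distance in Mb from the start of the window that holds the first region. The highest bars, 149 and 210 regions, begin 50 and 51 Mb along this axis, and triangles mark the 17 windows with 0 regions, while the median tag density runs from 132.2 to 192.5 tags per kb over the windows with at least 10 regions, with dense windows among the others.

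The window at 55 to 56 Mb held 210 regions, more than any of the other complete autosomal windows, of which the next had 170 (chromosome 16). These regions covered 375.5 kb, or 37.5% of the window. The neighbouring window at 54 to 55 Mb held 149 regions, rank 7 of 2357, and covered 23.5%. Both belonged to a dense stretch of 5 Mb, from 54 to 59 Mb, whose further windows held 85, 69 and 75 regions. This stretch had 588 regions, 22.1% of those on the chromosome, and 20.4% of the tags in them. The most regions in any 5 adjacent windows of another autosome were 494 on chromosome 3, the only other autosome with a dense run of 5 windows, and the median over the other autosomes was 349. Without this stretch chromosome 18 would have carried 27.3 regions per Mb, rank 6 when the other autosomes are left as listed.

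Within the stretch the first 2 Mb were filled throughout. All 20 bins of 100 kb there held regions, between 4 and 32 each with a median of 18.5, and together 359. In the last 3 Mb the 30 bins had a median of 6.5 regions, with 229 in all, and 5 bins had none. The fullest bin, 1300 kb from the start of the stretch, held 32 regions covering 43.0 kb, and the bin that followed held 25 regions covering 60.5 kb. The median gap between neighbouring regions of the stretch was 1036 bp, against 2036.5 bp over the chromosome. The stretch ended at a gap: no region lay between 58653778 and 60648881, a distance of 2.00 Mb.

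**Figure D3:**
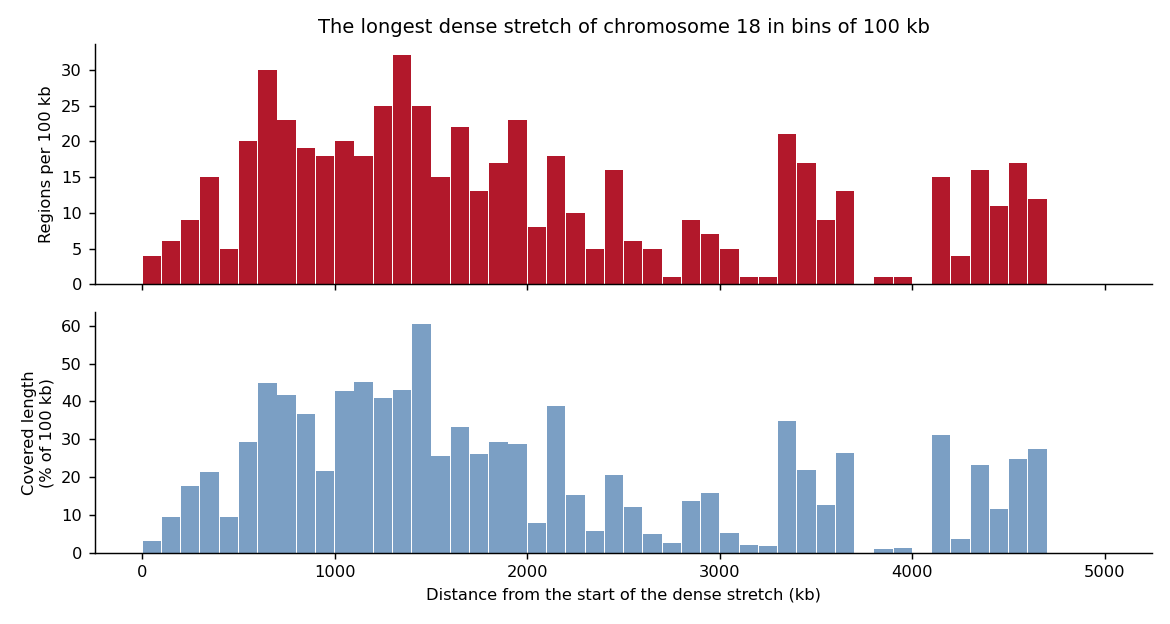
Bars give regions per 100 kb (top) and the percentage of each 100 kb bin covered by its regions (bottom) over the 5 Mb dense stretch, against the distance in kb from its start. Counts reach 32 within the first 2000 kb, where all 20 bins are filled, and the last 3 bins are empty.

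Regions in the fullest window had higher summit folds than the pooled regions of the rest of the chromosome. In the share of high folds, 1 smaller window was higher and others came near. The summit fold, the authors' value like the score, sets the SAHA height at the summit against the local DMSO background. It was at least 5 in 81 of the 210 regions at 55 to 56 Mb, or 38.6% (95% Wilson interval 32.3 to 45.3%), against 19.6% of the other chromosome 18 regions and 19.1% over all autosomes. The window at 43 to 44 Mb, with 14 regions, had 42.9% and a median fold of 4.62, and the shares at 31 to 32 Mb (35.3% of 34 regions), 4 to 5 Mb (34.5% of 55) and 57 to 58 Mb and 60 to 61 Mb (33.3% each, of 69 and 12) lay inside the interval. Among the 242 dense autosomal windows the share at 55 to 56 Mb ranked 3, and their median was 20.9%. The median fold was 4.61 there, 4.29 in the whole 5 Mb stretch and 3.95 on the rest of the chromosome. The lengths did not differ in the same way, with medians of 1154.5, 1149.5 and 1217 bp. Intervals on shares cover counting error only, and neighbouring regions may belong to 1 broader domain. The shares of the smaller windows are less certain, and no interval was computed for them.

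The second fullest place was near the start of the listed part. The window at 5 to 6 Mb held 135 regions (rank 11 of 2357) covering 268.6 kb. Its regions were longer than those of the 5 Mb stretch, with a median of 1328 bp, and their median fold was lower at 3.97. The window before it, only partly within the listed span, had 55 regions with a median length of 1943 bp, of which 34.5% had a fold of at least 5. A dense stretch of 2 Mb at 78 to 80 Mb had 90 and 82 regions, covered 16.6% of its length and had a median fold of 3.98. Single dense windows lay at 33 to 34 Mb (65 regions), 35 to 36 Mb (78), 39 to 40 Mb (73), 68 to 69 Mb (75) and 75 to 76 Mb (70). Their covered share ran from 9.70% at 33 to 34 Mb to 16.3% at 75 to 76 Mb.

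Regions were missing over long stretches between these places. Windows with 0 regions were adjacent at 17 to 20 Mb, 21 to 23 Mb, 26 to 30 Mb and 71 to 73 Mb, and single at 41, 45, 48, 59, 66 and 81 Mb (starts of the windows). The longest gap, 4.90 Mb, ran from 25669348 to 30565411. The next, of 3.89 Mb from 16980556 to 20868449, was separated by 1 region from another of 2.78 Mb that ended at 23654628. That region, at 20 to 21 Mb, was 3971 bp long with a fold of 3.20. In all, 22 gaps of at least 500 kb added up to 35.8 Mb of the 80.7 Mb span. Between first and last regions, the longest gap was shorter than on most autosomes, where the median longest gap was 6.12 Mb. Sequence past the last region was not counted, so this order cannot be carried over to the assembled length. A gap means only that no SAHA-high region is listed there, and the H4 signal of either library within gaps was not analysed here.

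Dense windows hold more regions by definition, and the median length of their regions was close to that in the other windows. In the dense windows of chromosome 18 the median length was 1191 bp, with quartiles of 818.8 and 2112 bp, at a median density of 156.0 SAHA tags per kb. In the middle windows, which had at least 1 region but fewer than 65, the median length was 1198 bp, with quartiles of 814.5 and 1994.5 bp, at 153.7 tags per kb. The genome average was 66.1 SAHA tags per kb. The median score was 133.5 in dense and 125.4 in middle windows, and the median fold 4.07 and 3.92. Regions over 5 kb made up 5.10% in dense and 3.88% in middle windows, against 8.26% and 7.95% on the other autosomes. The median lengths on the other autosomes were 1362 and 1347 bp and the median densities 161.9 and 160.1 tags per kb. There too both classes lay close together in these medians. Counted over all covered sequence, the density on chromosome 18 was 188.8 tags per kb in dense and 186.7 in middle windows. On the other autosomes it was 213.5 and 214.9. Over the whole of chromosome 18 it was 188.6, rank 18 of 19. Over the 55 windows of chromosome 18 with at least 10 regions, the median length ran from 769 bp at 10 to 11 Mb to 2530.5 bp at 60 to 61 Mb, and the median density from 132.2 to 192.5 tags per kb.

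**Figure D4:**
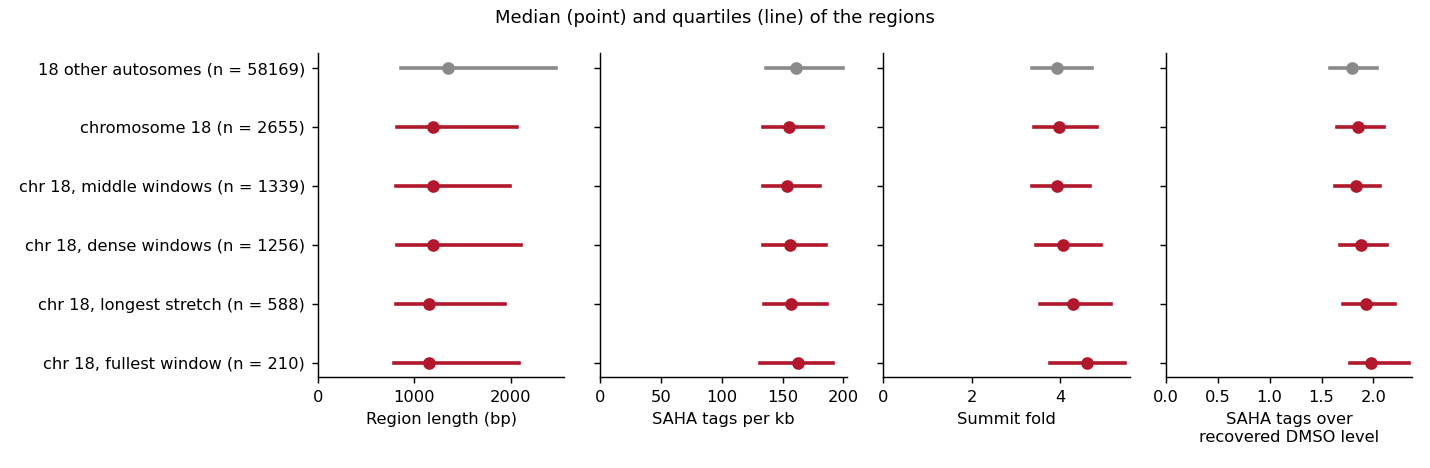
Points are medians and lines span the quartiles of region length (bp), SAHA tags per kb, summit fold and the ratio of SAHA tags to the recovered DMSO level, for the 18 other autosomes (grey) and for chromosome 18 and its classes of windows (red). Length shifts left from the other autosomes to chromosome 18 (1351 to 1199 bp), and fold rises in the fullest window (4.61), while the quartile lines overlap throughout.

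Chromosome 18 had a small share of long regions, as did some other autosomes. The median length was 1199 bp, rank 18 of 19, against 1351 bp over the pooled regions of the other autosomes. Regions over 5 kb made up 4.63% (123 of 2655, with a 95% Wilson interval of 3.90 to 5.50%), against 8.06% elsewhere. This was the lowest share of any autosome, but chromosomes 3 (4.81%) and 13 (5.31%) were near it. Per Mb, chromosome 18 had 1.52 regions over 5 kb, rank 15 from the highest. Only 14 regions exceeded 10 kb, or 0.527% against 1.39%. Short regions were not in excess to the same extent: 3.88% were under 600 bp, against 3.62%. A summit fold of at least 5 was reached in 561 regions, or 21.1% (95% Wilson interval 19.6 to 22.7%), against 19.1% of all autosomal regions. This share ranked 2, within the 16.3 to 21.2% of the other autosomes, and was 19.6% without the window at 55 to 56 Mb. A score of at least 100 was reached in 61.2%, near the 62.6% of all autosomal regions.

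The local DMSO level behind each call was low more often than on the other autosomes pooled, a trait shared with several single autosomes. This level is the Poisson mean that, with the listed SAHA tags, gives the listed score. It could be computed for 2649 regions, and here 1 stands for the average of the genome. For 78.4% of them it equalled a background the caller could have used, and the DMSO signal was then at most this high. For the others it is approximate, and their ratios are marked with "about". In 24.8% of the chromosome 18 regions the level was the genome average itself, so their own DMSO signal may have been lower. The median level was 1.18 on chromosome 18 (quartiles 1.00 and 1.53) and 1.30 on the other autosomes (1.03 and 1.72). Levels at or below the average (within 0.1%) made up 29.3% on chromosome 18, with a 95% Wilson interval of 27.6 to 31.1%, against 21.1% on the others pooled. Among single autosomes this share ranked 4, below chromosomes 14 (32.1%), 13 (31.3%) and 12 (29.6%). Chromosomes 9 (28.9%) and 7 (28.4%) were close to it. In the window at 55 to 56 Mb it was 43.3% and in the 5 Mb stretch 36.1%, but at 5 to 6 Mb, where the median level was 1.28, it was 14.8%. The ratio of SAHA tags to the level had a median of 1.85 (quartiles 1.65 and 2.10), against 1.80 (1.58 and 2.03) on the others, and was 1.98 at 55 to 56 Mb and 1.79 at 5 to 6 Mb. The caller passes a region of low DMSO level more easily, and that level is also the denominator of the ratio, so neither difference is independent of the calling.

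Within the same classes of DMSO level, median lengths on chromosome 18 lay close to those elsewhere, except in the highest class. At or below the average the median lengths were 854 bp on chromosome 18 and 820 bp on the other autosomes. Between the average and 1.5 times it they were 1126 and 1131 bp, and from 1.5 to 2 times 1942 and 1988.5 bp. Only above 2 times did they part further, at 3265.5 and 3809 bp, and there chromosome 18 had 9.44% of its regions against 16.5% on the others. The ratios in these 4 classes were 2.02, 1.89, 1.62 and 1.37 on chromosome 18 and 1.98, 1.86, 1.62 and 1.41 on the others. The level comes from the tags, score and length of the same regions, so this likeness is in part built in. The classes are also wide, and the last has no upper limit.

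**Figure D5:**
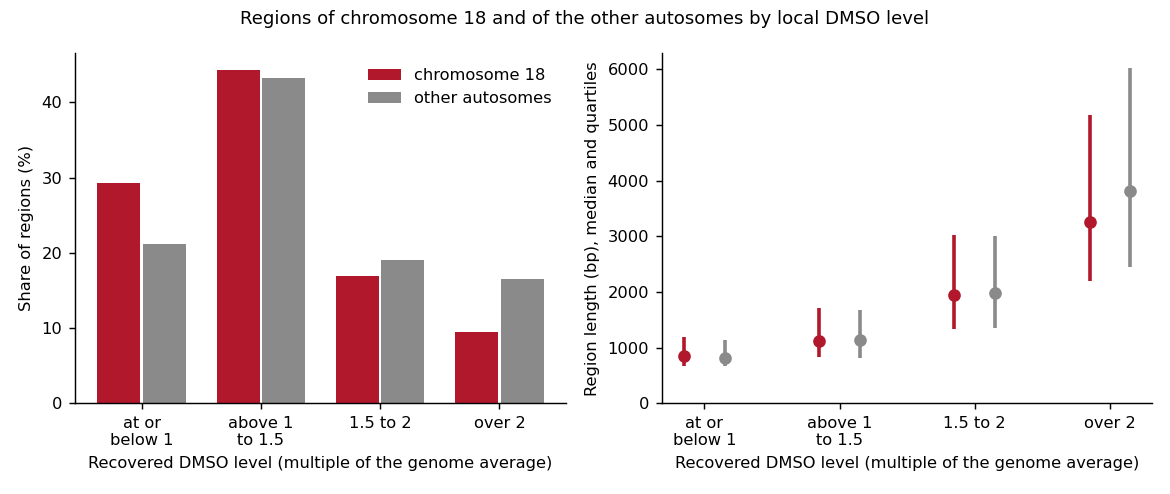
The left panel gives the share of regions in each class of recovered DMSO level, as a multiple of the genome average, and the right panel the median and quartiles of region length in bp in the same classes, for chromosome 18 (red) and the other autosomes (grey). Against the other autosomes pooled, chromosome 18 has a larger share of regions at or below the average (29.3 against 21.1%) and a smaller one above 2 times (9.44 against 16.5%). Median lengths within a class lie close together, except above 2 times.

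Gaps between the regions were short. On chromosome 18, 73.7% of the 2654 gaps between neighbours were 10 kb or shorter, the highest share among the autosomes (next 72.7% on chromosome 3). Joining regions across such gaps gave 700 clusters, of which 269 were single regions and 63 held 10 or more, with 994 regions in them. The cluster with the most regions, 39, lay inside the 5 Mb stretch at 54626094 to 54765401, where regions covered 46.7% of 139.3 kb. Its median ratio of SAHA tags to the recovered DMSO level was 1.83 (range 1.27 to 2.61). Another cluster of 39 regions, at 68258700 to 68384556, covered 51.6% of 125.9 kb with a median ratio of 1.89. The third, with 35 regions at 5596451 to 5720901, covered 35.2% of 124.5 kb with a median ratio of 1.86. Tag density over the covered part was alike in the 3, at 177.8, 180.2 and 169.0 tags per kb.

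The region of highest summit fold lay outside the dense windows. At 77739235 to 77753077, in a window with 18 regions, a region of 13.8 kb had a fold of 13.11 and 5125 SAHA tags (95% Poisson interval 4986 to 5267), the most tags on the chromosome. Its score was at the ceiling of the format, which leaves only limits: a DMSO level of 3.18 times the average or less, and a ratio of 1.76 or more. Only 3 other regions reached a fold of 10. The first, at 57411411 to 57413318 in the 5 Mb stretch, held 424 SAHA tags against 82 DMSO tags of its own, a ratio of 3.19 after depth scaling, with a fold of 10.88. The next, at 4985409 to 4991886, had a fold of 10.86, 1797 tags and a ratio of 2.78 or more. The last, at 56408137 to 56412030, also in the stretch, had a fold of 10.51, 1062 tags, a DMSO level no higher than 1.02 times the average and a ratio of 4.05 or more. The fifth highest fold, 9.65, was at 55401746 to 55405343, with 689 tags and a ratio of about 2.92. Each of these regions of highest fold had a listed FDR of 100%, so their high folds did not go with a low FDR.

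Of the regions named for length or tags, the one of highest fold described above, which is the second longest, has only a lower limit to its ratio. The others showed high tag density at modest ratios. The longest, 16.7 kb at 4954892 to 4971598, held 4465 tags at a ratio of about 1.55 to a DMSO level of 2.61 times the average. At 61147591 to 61160582 a region of 12992 bp held 4969 tags, or 382.5 per kb, but its DMSO level was 5.09 times the average and its ratio about 1.14. Its neighbour at 61164212 to 61175888 was similar, with 340.1 tags per kb, a level of 4.23 and a ratio of about 1.22. At 75582421 to 75595697 a region of 13.3 kb had 3837 tags and a ratio of about 1.37. A region of 13.5 kb inside the fullest window, at 55448078 to 55461613, had a score of only 59.83, a level of 3.72 and a ratio of about 1.08. The window at 61 to 62 Mb, which is not dense with 60 regions, had 3 of the 14 regions over 10 kb and covered 149.5 kb. The window at 4 to 5 Mb, only partly within the listed span, also had 3 of them and covered 148.3 kb.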

How the data were processed

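One list of regions was deposited for the SAHA and DMSO libraries. The submitters' processing notes name build mm9, the peak caller MACS 1.4.0rc2, the aligner BWA 0.5.9, CASAVA 1.7.0 and SAMtools. Per the file headers, SAHA reads were the ChIP file and DMSO reads the control, with a p cutoff of 1e-05 and at most 3 duplicate tags per position. After this 123676661 SAHA tags (97.4%) and 76214516 DMSO tags (65.6%) remained, so a DMSO tag was weighed 1.62 times. As deposited, the columns hold tag counts of SAHA, the score, the fold ratio at the summit and the FDR in percent, which ran from 58.24% to 100% on chromosome 18. Positions and lengths in bp are also the authors' values.

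Regions were put into 1 Mb windows by their midpoint, and covered length was split at window ends. A window is complete if it lies between the first and the last region of its chromosome. Dense and empty windows had counts at or above the 90th or at or below the 10th percentile (0 regions) of complete autosomal windows. Regions and clusters were named by rule: the 5 highest in fold, length and tags, the 3 clusters with most regions, and the 5 fullest windows. Other windows were named as first or last of a stretch or as an extreme of a range, and the windows at 4, 20, 31, 43, 57, 60 and 61 Mb were chosen after their values were seen. The DMSO level was not recovered for 6 regions with a score of 3000 or above. Python 3.11.15, numpy 2.4.6, scipy 1.17.1, pandas 2.3.3 and matplotlib 3.10.9 were used, and the functions were tested on simulated data. The chromosome and all measures were chosen with earlier results of these data known. No sequences are shown and no genes were assigned.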

Additional observations from a re-analysis of the deposited data

How the results depend on the processing

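No paired analysis was possible because each condition had 1 library. Regions per Mb on chromosome 18 were 20.1 from a score of 100 up, 6.95 from a fold of 5 up, 20.0 with neighbours joined within 1 kb, 40.8 over windows that hold a region, 26.2 without the 5 fullest windows, 27.3 without the stretch at 54 to 59 Mb and 31.2 from position 1. Its rank moved from 1 to 2 with joined neighbours, to 3 without the 5 fullest windows of each autosome and to 6 without that stretch. It stayed at 1 under the score and fold limits, over filled windows and from position 1. In the order of the same settings, leaving out joining, covered bp per Mb were 44712, 16300, 72469, 46395, 49301 and 55376, and tags per Mb were 8867, 3422, 13667, 8717, 9333 and 10443. The median SAHA to DMSO ratio was 2.02 and 2.33 under the same score and fold limits, 1.76 above the average level and 1.87 among matched regions. Dense windows numbered 22 of 161 (13.7%) with 500 kb windows, 5 of 39 (12.8%) with 2 Mb windows, 16 of 80 (20.0%) when shifted, 11 of 80 (13.8%) with joined neighbours and 9 of 80 (11.2%) from a score of 100 up, against 16.2% as listed. Empty ones numbered 51, 3, 16, 17 and 17. The share of gaps was 62.9% at 5 kb and 62.5% from a score of 100 up. Stricter limits, removed windows and other window sizes change these values by construction. The alternatives that leave out the stretch, start at position 1 or use matched regions were added after the data were seen. The unequal loss of duplicates cannot be undone from the list, and no alternative can stand in for replicates.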
